A study of Mus musculus with 6 samples.

Results

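The transcripts of Hippo effectors and YAP target genes were examined in primary vascular smooth muscle cells (VSMCs) of the mouse aorta with and without Smyd2, a lysine methyltransferase. The set held 10 genes, taken as the rows whose symbol matched a list of names, of 18112 genes in the expression table. They were the target genes Ctgf, Cyr61, Ankrd1 and Amotl2, the cofactors Yap1 and Wwtr1, the transcription factors Tead1, Tead2 and Tead3, and the kinase Lats2. All 10 were present in the table and all 10 passed the filter on low values.

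Hippo signalling is a kinase cascade that restrains the cofactors YAP and TAZ. When the LATS kinases phosphorylate them, YAP and TAZ are held in the cytoplasm or degraded, and when the cascade is quiet they enter the nucleus and bind TEAD factors to switch on genes of growth, matrix and the cytoskeleton. Much of this control acts on the proteins, so transcript levels of YAP and TAZ do not report their activity. In VSMCs the pathway responds to stretch, stiffness and injury, and is known for its part in the change from a contractile to a proliferative state.

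The 6 libraries, numbered 1 to 3 in each group by replicate, were 3 from Smyd2 fl/fl mice and 3 from Smyd2 SMC-/- mice, all C57BL/6. Both groups carry loxP sites around exon 2 of Smyd2, and the Smyd2 SMC-/- group also carries a Cre recombinase driven by the Tagln (SM22-alpha) promoter, which is active in some other cell types as well. The study's methods give mice of 8 to 10 weeks as the source and cells at passage 4, starved overnight, whereas the sample labels give passage 6 and medium with 10% serum. The methods also state that adventitia and endothelium were removed before the cells were grown. Expression was given as FPKM, the fragments of a gene scaled to its transcript length and to the mapped fragments of the library, so that levels of different genes can be set side by side per length. The study's methods state at least 3 independent experiments for its data in general, and littermates as control mice. Nothing in the sources says whether the replicates sequenced here came from separate animals or cultures. The p-values therefore measure only the spread between these libraries, which may be technical. Depth is approximate. The spacing of low values gave 16700000 to 19500000 fragments per library, and other allowances for fragment length gave 16050000 to 23600000.

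The replicate 1 libraries stood apart. Spearman's rho across tested genes reached 0.992 (Smyd2 fl/fl) and 0.989 (Smyd2 SMC-/-) for replicate 2 against 3. For replicate 1 against the others of its group it was between 0.920 and 0.934. Along the leading principal component, which held 50.2% of the variance, scores placed each replicate 1 library below the other 2 of its group. Log2 fold changes of the members are therefore also given for replicates 2 and 3 alone. That fit keeps the libraries most alike within each group, so its adjusted p values rest on a small spread. In it 3650 of the 12565 tested genes had an adjusted p under 0.05.

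The targeted gene was read first as a check of the labels. Smyd2 was at 7.87, 3.10 and 3.0 FPKM across Smyd2 fl/fl libraries 1 to 3, against 1.67, 0.40 and 0.80 FPKM across Smyd2 SMC-/- libraries 1 to 3. The groups did not overlap, and the two-sided exact permutation p was 0.1, the smallest that 3 against 3 libraries allow. Smyd2 had a log2 fold change of -1.48 on the log2(FPKM + 1) scale (adjusted p = 0.105, or 0.0189 when replicate number entered as a block). Over 14 alternative fits, which are the alternatives meant wherever such a range is given below, its adjusted p ran from 0.00126 to 0.305. In bulk RNA, fewer cells with a transcript and less transcript per cell cannot be told apart. FPKM is given per gene and not per exon, so the loss of exon 2 itself was not read.

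Genes were called at an adjusted p under 0.05 in limma, with any fold change. Of the 10 members 1 was called, Amotl2, which was higher in Smyd2 SMC-/-, beside 2.44% of the 12565 genes tested. With the replicate block, in which replicate number enters the fit, Amotl2 was again the member called, beside 10.4% of tested genes. The median log2 fold change of the members was 0.14, against -0.02 over all tested genes. The 2 groups did not overlap for 4 members: Cyr61, Ankrd1 and Amotl2 were higher in every Smyd2 SMC-/- library and Wwtr1 was lower in every one. Groups separated in this way with higher values in 13.1% of all tested genes and with lower values in 15.0%.

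**Figure D1:**
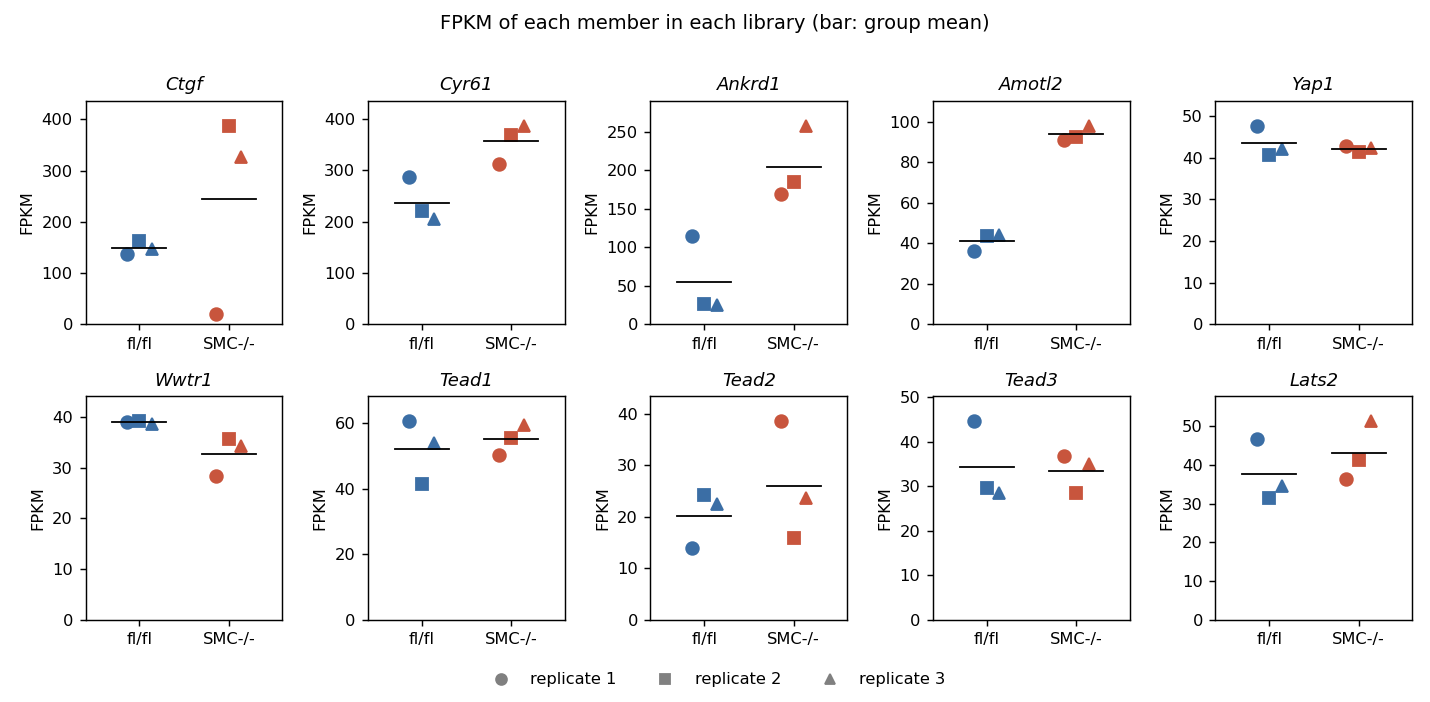
FPKM of the 10 members (vertical axes, from 0) in the 3 Smyd2 fl/fl and 3 Smyd2 SMC-/- libraries, with symbols for replicate number and a bar for the group mean. Amotl2 lies between 36.21 and 44.12 FPKM in Smyd2 fl/fl and between 91.02 and 98.19 FPKM in Smyd2 SMC-/-, while Ctgf of Smyd2 SMC-/- replicate 1 lies at 19.76 FPKM, far from the other 2 libraries of its group.

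Promoter sequences are shown for the 3 target genes that were higher in every Smyd2 SMC-/- library, because TEAD factors are known to bind the bases GGAATG, an element of muscle gene promoters called MCAT. The 250 bases before the gene start come from RefSeq on GRCm38.p6 and are written 5′ to 3′ on the strand of the gene. They lie at chr3:145649986-145650235 on the minus strand for Cyr61, at chr19:36119845-36120094 on the minus strand for Ankrd1 and at chr9:102717554-102717803 on the plus strand for Amotl2. Capitals mark GGAATG or its reverse complement CATTCC.
Cyr61: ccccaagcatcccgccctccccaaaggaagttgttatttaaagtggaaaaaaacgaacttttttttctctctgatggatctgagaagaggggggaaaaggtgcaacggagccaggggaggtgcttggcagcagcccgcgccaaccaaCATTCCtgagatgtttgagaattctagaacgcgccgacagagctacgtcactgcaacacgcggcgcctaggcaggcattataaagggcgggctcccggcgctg
Ankrd1: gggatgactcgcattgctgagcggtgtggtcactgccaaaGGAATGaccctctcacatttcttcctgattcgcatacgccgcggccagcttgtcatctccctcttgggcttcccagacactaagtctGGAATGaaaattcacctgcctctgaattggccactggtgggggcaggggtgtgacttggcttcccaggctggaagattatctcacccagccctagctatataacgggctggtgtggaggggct
Amotl2: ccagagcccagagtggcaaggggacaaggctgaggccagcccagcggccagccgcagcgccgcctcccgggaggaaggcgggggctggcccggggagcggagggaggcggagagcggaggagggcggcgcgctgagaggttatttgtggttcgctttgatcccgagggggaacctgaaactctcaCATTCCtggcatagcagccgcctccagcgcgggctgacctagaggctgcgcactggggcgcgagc

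The match of Cyr61 began 103 bases before the gene start, those of Ankrd1 210 and 123 bases before it, and that of Amotl2 65 bases before it. Of the 10 members 8 had an entry in the promoter table, matched by NCBI Gene number, and Ctgf and Tead1 had none. Of these 8, the genes Cyr61, Ankrd1, Amotl2, Yap1, Wwtr1 and Tead3 held a match in at least 1 window, which is 6 members, and Tead2 and Lats2 held none. Over the whole table, 12.6% of 32851 windows and 14.4% of 27025 genes held a match on either strand. Wwtr1, Tead3 and Lats2 have more than 1 listed start, which gives each of them more than 1 window. The CArG box, the element bound by serum response factor, was searched in the same windows. It was found in none of the 8 members with an entry, against 1.6% of all genes. At so low a share, finding none among 8 genes says little. A match is a run of letters, and binding was not measured.

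**Figure D2:**
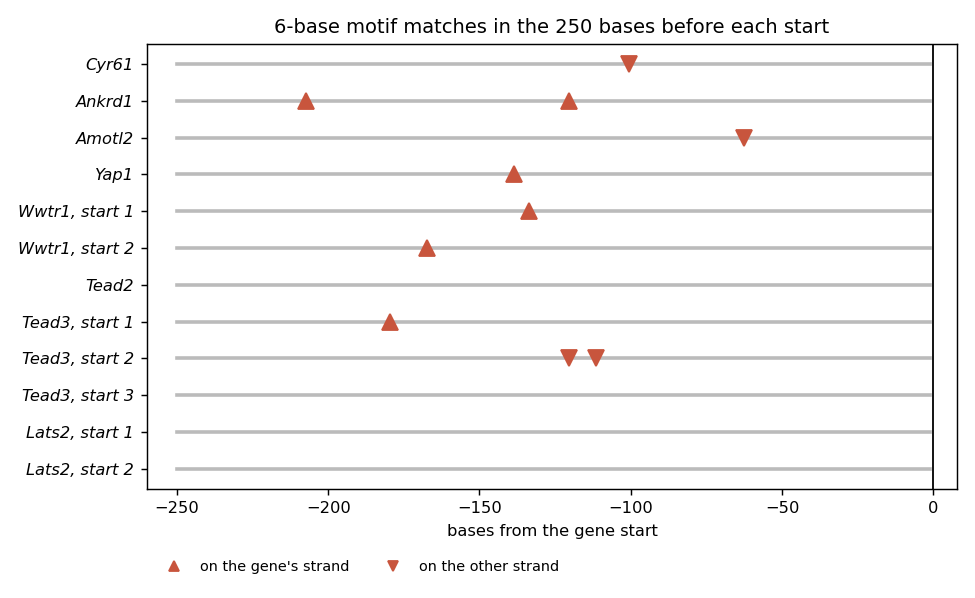
Positions of GGAATG or its reverse complement in the 250 bases before each listed start of the 8 members with an entry, in bases from the gene start (horizontal axis), with triangles up for the gene's strand and down for the other strand. Ankrd1 holds 2 matches, at 210 and 123 bases, and Amotl2 holds the match nearest to a start, at 65 bases.

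Amotl2, a member of the angiomotin family that holds YAP at cell junctions and is itself a YAP target, showed a similar difference in each replicate pair. It stood at 36.21, 43.73 and 44.12 FPKM across Smyd2 fl/fl libraries 1 to 3, against 91.02, 92.42 and 98.19 FPKM across Smyd2 SMC-/- libraries 1 to 3. The libraries of a group lay close together, and the gap between the groups was wider than the spread within either. The mean in Smyd2 SMC-/- was 2.27 times that in Smyd2 fl/fl, and the log2 fold change was 1.17 (95% interval 0.87 to 1.47, adjusted p = 0.0112). Within replicate numbers 1, 2 and 3 the log2 difference was 1.31, 1.06 and 1.14. The call was lost without replicate 2 or 3 of either group, at adjusted p values between 0.0654 and 0.0754 and log2 fold changes between 1.14 and 1.22. Without replicate 1 of both groups the log2 fold change was 1.10 (adjusted p = 0.000321), beside 3650 of the 12565 tested genes called. Over the alternatives the adjusted p of Amotl2 ran from 0.000321 to 0.0754.

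Ankrd1 encodes a cardiac and muscle ankyrin repeat protein that answers to stretch, and it is a well known YAP target. It was at 114.48, 26.04 and 25.46 FPKM across Smyd2 fl/fl libraries 1 to 3, against 169.64, 184.46 and 258.14 FPKM across Smyd2 SMC-/- libraries 1 to 3. Each Smyd2 SMC-/- library was above each Smyd2 fl/fl library, but Smyd2 fl/fl replicate 1 was far above the other libraries of its group. Its log2 fold change was 2.21 with a wide interval of 0.83 to 3.59, and the gene was not called (adjusted p = 0.103, or 0.0672 with the replicate block). Without Smyd2 fl/fl replicate 1 the log2 fold change was 2.91 and the gene was called (adjusted p = 0.00749), and in replicates 2 and 3 alone it was 3.03 (adjusted p = 3.2e-05). These 2 fits called 277 and 3650 of the 12565 tested genes. The alternatives gave Ankrd1 adjusted p values from 3.2e-05 to 0.316. Ankrd1 lies on chromosome 19, whose 426 tested genes had a median log2 fold change of -0.42, the lowest among the chromosomes with more than 1 tested gene, so the difference of Ankrd1 was opposite in sign to that of its chromosome's median gene. With the median of each chromosome removed, an alternative added after the values were seen, the log2 fold change was 2.63 (adjusted p = 0.0895).

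Cyr61 and Ctgf encode secreted matrix proteins of the CCN family, and both are standard readouts of YAP activity. Cyr61 was the most abundant member by mean FPKM, at 285.92, 220.14 and 204.06 FPKM across Smyd2 fl/fl libraries 1 to 3, against 312.96, 368.37 and 386.93 FPKM across Smyd2 SMC-/- libraries 1 to 3. The groups did not overlap, although replicate 1 libraries of both groups lay close to each other. For Cyr61 the log2 fold change was 0.60 (95% interval 0.19 to 1.01) and the gene was not called (adjusted p = 0.125, or 0.0932 with the replicate block). In replicates 2 and 3 alone, where 3650 of the 12565 tested genes were called, the log2 fold change was 0.83 (adjusted p = 0.00222). The adjusted p of Cyr61 ran from 0.00222 to 0.373 over the alternatives.

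Ctgf was at 137.70, 161.75 and 146.89 FPKM across Smyd2 fl/fl libraries 1 to 3, against 19.76, 387.96 and 327.45 FPKM across Smyd2 SMC-/- libraries 1 to 3. The Smyd2 fl/fl libraries were alike, and the Smyd2 SMC-/- libraries lay on both sides of them, replicate 1 far below and replicates 2 and 3 far above. Over all libraries the log2 fold change was -0.11, with an interval from -2.69 to 2.46 (adjusted p = 0.969). Without Smyd2 SMC-/- replicate 1 it was 1.26 (adjusted p = 0.0145), and in replicates 2 and 3 alone it was 1.20 (adjusted p = 0.000743). These 2 fits called 686 and 3650 of the 12565 tested genes. Over the alternatives the adjusted p of Ctgf ran from 0.000743 to 0.9997. Mean FPKM, by contrast, was higher in Smyd2 SMC-/-, at 245.06 against 148.78. With all libraries kept, the log2 fold change was 0.0035 after rescaling to TPM and 0.25 with chromosome medians removed. Ctgf lies on chromosome 10, whose 579 tested genes had a median log2 fold change of -0.36. The direction of Ctgf thus depended on that library, on the log scale, on the scaling and on the removal of its chromosome's median.

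**Figure D3:**
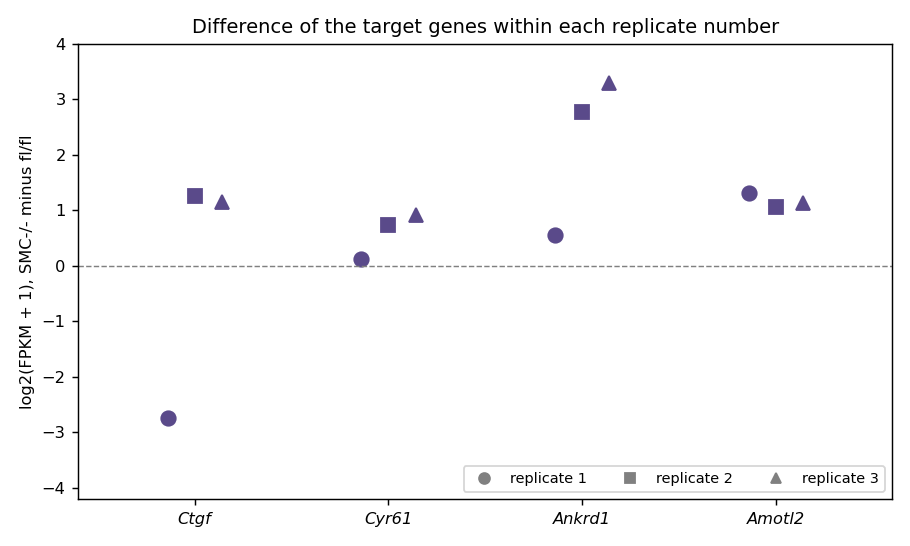
Difference in log2(FPKM + 1) between the Smyd2 SMC-/- and the Smyd2 fl/fl library of the same replicate number (vertical axis) for the 4 target genes, with a dashed line at no difference. Amotl2 lies between 1.06 and 1.31 in the 3 pairs, while Ctgf is at -2.74 in pair 1 and at 1.26 and 1.15 in pairs 2 and 3.

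Replicate 1 thus gave the smallest difference of the 3 pairs for Cyr61, at 0.13 against 0.74 and 0.92, and for Ankrd1, at 0.56 against 2.78 and 3.29. Amotl2 did not follow this division. When the block set replicate 1 apart from the other 2, the members called were Amotl2 (adjusted p = 0.00115), Ankrd1 (adjusted p = 0.0348) and Cyr61 (adjusted p = 0.0439), beside 20.3% of all tested genes.

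Among tested genes, the profiles nearest to each target were found by the mean absolute difference of centred log2(FPKM + 1) values over the 6 libraries. Nearest to Cyr61 were Gadd45g and Gfod1, at 0.061 and 0.067, and nearest to Amotl2 were Gimap9 and Rtl6, at 0.053 and 0.072. Both neighbours of Amotl2 were of low level, with no library above 2.77 FPKM. Their ratios of mean FPKM, Smyd2 SMC-/- to Smyd2 fl/fl, were 10.0 for Gimap9 and 3.34 for Rtl6, unlike the 2.27 of Amotl2. Ankrd1 and Ctgf had no neighbour as near. They also varied more between libraries, and the measure is not scaled to the spread of a profile, so their distances cannot be compared with those of Cyr61 and Amotl2. Smoc2 and Adgrl1 lay at 0.425 and 0.524 from Ankrd1, and a gene model without a symbol and Cfb lay at 0.325 and 0.341 from Ctgf. Cfb followed the division seen for Ctgf, at 5.39, 12.46 and 9.41 FPKM across Smyd2 fl/fl libraries 1 to 3, against 0.73, 20.41 and 34.10 FPKM across Smyd2 SMC-/- libraries 1 to 3.

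Neither cofactor was called. Yap1 was at 47.72, 40.67 and 42.17 FPKM across Smyd2 fl/fl libraries 1 to 3, against 42.80, 41.38 and 42.45 FPKM across Smyd2 SMC-/- libraries 1 to 3. The groups overlapped, and the log2 fold change of -0.04 had a narrow interval of -0.32 to 0.24 (adjusted p = 0.895). Its sign turned in replicates 2 and 3 alone, at 0.017 (adjusted p = 0.914, and 0.585 to 0.983 over the alternatives), and after rescaling to TPM, at 0.083. Wwtr1, which encodes TAZ, was at 38.94, 39.13 and 38.65 FPKM across Smyd2 fl/fl libraries 1 to 3, against 28.32, 35.69 and 34.28 FPKM across Smyd2 SMC-/- libraries 1 to 3. Every Smyd2 SMC-/- library was below the narrow range of Smyd2 fl/fl, with replicate 1 the lowest. Its log2 fold change was -0.25 (95% interval -0.56 to 0.06, adjusted p = 0.339), and -0.15 in replicates 2 and 3 alone (adjusted p = 0.275, and 0.125 to 0.652 over the alternatives).

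The ratio of Yap1 to Wwtr1 FPKM was 1.23, 1.04 and 1.09 across Smyd2 fl/fl libraries 1 to 3, against 1.51, 1.16 and 1.24 across Smyd2 SMC-/- libraries 1 to 3. Within each replicate number the ratio was higher in Smyd2 SMC-/-, but the groups overlapped. The means were 1.12 ± 0.0961 (SD, n = 3) and 1.30 ± 0.185 (SD, n = 3), and the difference of 0.18 had a two-sided exact permutation p of 0.2. Without Smyd2 SMC-/- replicate 1 the difference was 0.080, and with any other library left out it was 0.14 to 0.26.

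**Figure D4:**
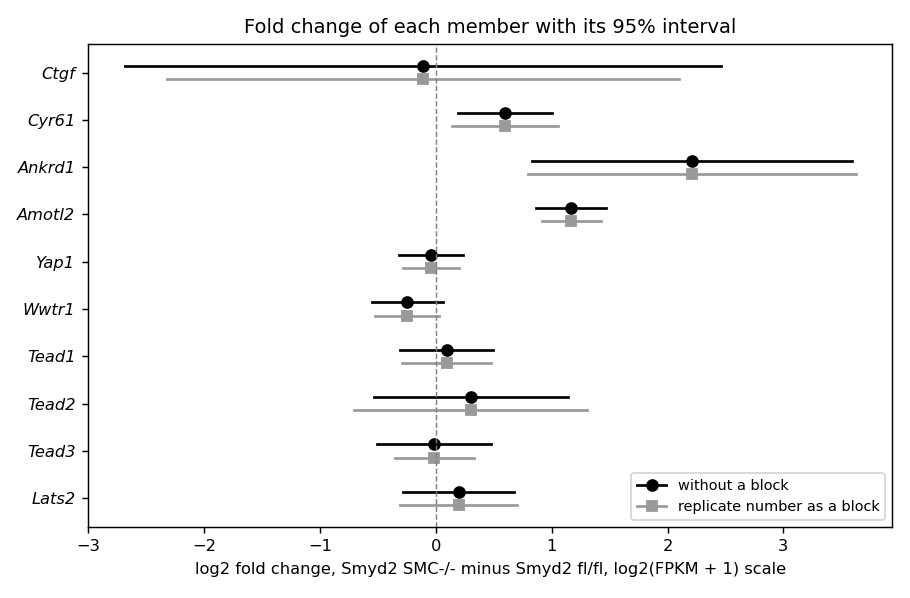
Log2 fold change of the 10 members on the log2(FPKM + 1) scale (horizontal axis, Smyd2 SMC-/- minus Smyd2 fl/fl) with 95% intervals, without a block (circles) and with the replicate block (squares). The interval of Amotl2 runs from 0.87 to 1.47, and that of Ctgf from -2.69 to 2.46.

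The TEAD factors bring YAP and TAZ to DNA. Tead1 lay between 41.58 and 60.62 FPKM in Smyd2 fl/fl and between 50.29 and 59.61 FPKM in Smyd2 SMC-/-, and Tead3 between 28.60 and 44.66 FPKM and between 28.58 and 36.87 FPKM. Both overlapped between the groups, with log2 fold changes of 0.09 for Tead1 (adjusted p = 0.817) and -0.01 for Tead3 (adjusted p = 0.982). In replicates 2 and 3 alone these were 0.27 (adjusted p = 0.178, and 0.178 to 0.972 over the alternatives) and 0.12 (adjusted p = 0.501, and 0.501 to 0.989 over the alternatives). Tead2 was at 13.87, 24.18 and 22.41 FPKM across Smyd2 fl/fl libraries 1 to 3, against 38.52, 15.80 and 23.65 FPKM across Smyd2 SMC-/- libraries 1 to 3. Replicate 1 was the lowest Tead2 value in Smyd2 fl/fl and the highest in Smyd2 SMC-/-. For Tead2 the log2 fold change of 0.30 (95% interval -0.54 to 1.14, adjusted p = 0.698) became -0.25 in replicates 2 and 3 alone (adjusted p = 0.324, and 0.324 to 0.973 over the alternatives).

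The 4 TEAD genes together summed to 98.1 to 124.8 FPKM in Smyd2 fl/fl and to 102.4 to 127.9 FPKM in Smyd2 SMC-/-. Tead1 made up 46.8% ± 3.88 (SD, n = 3) of this sum in Smyd2 fl/fl and 47.5% ± 7.51 (SD, n = 3) in Smyd2 SMC-/-. Tead2 made up 18.8% ± 6.94 and 21.7% ± 7.58, and Tead3 30.7% ± 4.80 and 28.5% ± 0.548 (SD, n = 3 each). For these 3 genes the difference between the groups was smaller than the larger of the group SDs, with two-sided exact permutation p of 0.9, 0.7 and 0.7. The difference in share, for replicates 2 and 3 alone, turned from 2.93 to -5.11 percentage points for Tead2 and from -2.18 to 0.20 for Tead3, and grew from 0.71 to 5.68 for Tead1. Tead4, which is outside the member list, held the smallest share in every library, at 3.68% ± 0.877 for Smyd2 fl/fl against 2.22% ± 0.455 for Smyd2 SMC-/- (SD, n = 3 each). Its share was lower in every Smyd2 SMC-/- library (two-sided exact permutation p = 0.1), with a difference of -1.46, or -0.78 in replicates 2 and 3 alone. The separation was narrow, at 2.80% against 2.64% for replicate 2. The FPKM of Tead4 overlapped, at 5.69, 2.75 and 4.02 across Smyd2 fl/fl libraries 1 to 3, against 2.22, 2.70 and 2.78 across Smyd2 SMC-/- libraries 1 to 3. Tead4 was not called (log2 fold change -0.49, adjusted p = 0.307).

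**Figure D5:**
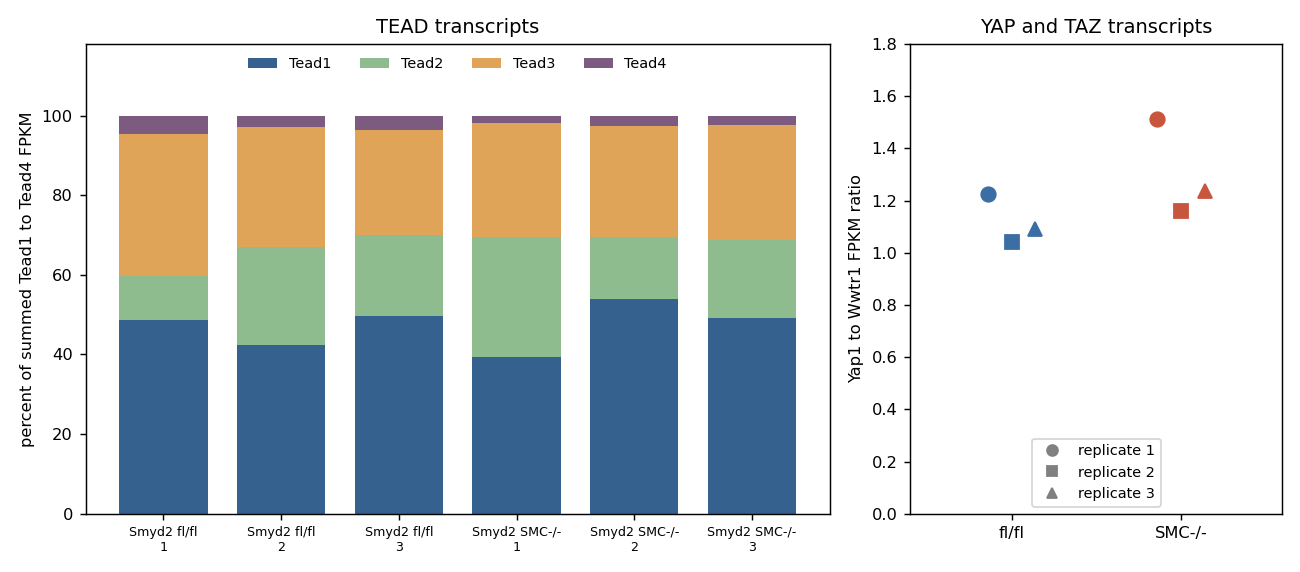
Left, share of Tead1 to Tead4 in their summed FPKM (vertical axis, percent) in each library. Right, ratio of Yap1 to Wwtr1 FPKM in each library, with symbols for replicate number. Tead1 holds 39.3% to 54.0% of the sum, and the Yap1 to Wwtr1 ratio of Smyd2 SMC-/- replicate 1 is the highest at 1.51.

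Lats2, the kinase that phosphorylates YAP and TAZ and is also a target of YAP, was at 46.75, 31.49 and 34.52 FPKM across Smyd2 fl/fl libraries 1 to 3, against 36.35, 41.42 and 51.33 FPKM across Smyd2 SMC-/- libraries 1 to 3. The groups overlapped because Smyd2 fl/fl replicate 1 lay above 2 of the Smyd2 SMC-/- libraries. The log2 fold change was 0.20 (95% interval -0.28 to 0.67, adjusted p = 0.652). In replicates 2 and 3 alone, where 3650 of the 12565 tested genes were called, it was 0.47 (adjusted p = 0.0279, and 0.0279 to 0.944 over the alternatives). With a single library left out it was 0.065 to 0.36.

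Of 45 tested genes in 3 further lists of the pathway, 3 were higher and 1 was lower in Smyd2 SMC-/- at an adjusted p under 0.05, beside 2.44% of all tested genes. With the replicate block the counts were 5 and 2, beside 10.4%. Their median log2 fold change was 0.05, against -0.02 over all tested genes. Among 19 kinases and upstream regulators 1 was called, Map4k4, a kinase that acts beside the Hippo kinases on LATS. It was at 74.07, 77.36 and 80.20 FPKM across Smyd2 fl/fl libraries 1 to 3, against 147.02, 178.68 and 209.24 FPKM across Smyd2 SMC-/- libraries 1 to 3, with a log2 fold change of 1.18 (adjusted p = 0.0191, and 0.00035 to 0.104 over the alternatives). Taok3, of a related kinase family, had a log2 fold change of 0.63 and was called with the replicate block but not without it (adjusted p = 0.0276 and 0.0553, and 0.00655 to 0.245 over the alternatives). Taok3 lies on chromosome 5, which had the highest median log2 fold change, 0.28, and with chromosome medians removed its own was 0.35 (adjusted p = 0.245).

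Among 10 tested regulators and partners, Amot was called lower and Ptpn14 was called higher, beside 2.44% of all tested genes. Amot, the founding angiomotin and a relative of Amotl2, was at 5.66, 6.72 and 7.63 FPKM across Smyd2 fl/fl libraries 1 to 3, against 1.51, 2.43 and 2.89 FPKM across Smyd2 SMC-/- libraries 1 to 3. Its groups were separated in the direction opposite to those of Amotl2, with a log2 fold change of -1.24 (adjusted p = 0.0437, and 0.00107 to 0.18 over the alternatives). Its call was lost with no filter on low values (adjusted p = 0.0617), after rescaling to TPM (adjusted p = 0.0528) and with chromosome medians removed (adjusted p = 0.0535). The third angiomotin, Amotl1, lay between 12.31 and 16.37 FPKM over the 6 libraries and was not called (log2 fold change 0.06, adjusted p = 0.882). Per length, Amotl2 was the most abundant angiomotin in every library and Amot the least.

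Ptpn14, a phosphatase that binds YAP, was at 10.20, 11.24 and 15.26 FPKM across Smyd2 fl/fl libraries 1 to 3, against 29.14, 27.55 and 28.24 FPKM across Smyd2 SMC-/- libraries 1 to 3. The log2 fold change was 1.17 (adjusted p = 0.0235, and 0.00205 to 0.136 over the alternatives). It is also listed among 17 other published YAP targets, of which 2 were called, both higher, beside 2.44% of all tested genes. The other called target was Ccdc80, a secreted matrix protein, with a log2 fold change of 1.12 (adjusted p = 0.0451, and 0.00116 to 0.185 over the alternatives), whose call was lost with no filter on low values (adjusted p = 0.0674). With the replicate block, where 10.4% of all tested genes were called, Tgfb2, a growth factor, was called as well. Its log2 fold change was 1.17 (adjusted p = 0.0553, or 0.0369 with the block, and 0.0154 to 0.197 over the alternatives). So was Foxf2, a forkhead factor, at -0.93 (adjusted p = 0.243, or 0.0211 with the block, and 0.00187 to 0.528 over the alternatives). With a single library left out, the log2 fold change of Foxf2 ran from -1.27 to -0.61.

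The calls of these pathway genes changed when single libraries were left out. With any 1 of the 4 libraries of replicates 2 and 3 left out, 0 of the 45 were called in limma. Of all tested genes 34 to 55 were called, against 306 with all libraries. In limma 10 to 12 of the 45 had an unadjusted p under 0.05, beside 1623 to 1867 of the 12565 tested genes. The log2 fold changes then lay between 1.06 and 1.21 for Map4k4, 1.12 and 1.32 for Ptpn14, 0.94 and 1.20 for Ccdc80 and -1.38 and -1.15 for Amot. Without Smyd2 fl/fl replicate 1 the number called among the 45 was 2, beside 277 of all tested genes. Amot (adjusted p = 0.0582) and Ccdc80 (adjusted p = 0.0856) were then no longer called. Without Smyd2 SMC-/- replicate 1 the number was 6, beside 686 of all tested genes. In replicates 2 and 3 alone 18 were called, beside 3650 of all tested genes.

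Igfbp3, a further listed target, is named because of its values. It was at 0.70, 0.91 and 0.77 FPKM across Smyd2 fl/fl libraries 1 to 3, against 1.24, 79.55 and 96.89 FPKM across Smyd2 SMC-/- libraries 1 to 3. As for Ctgf, Smyd2 SMC-/- replicate 1 stood far below the other libraries of its group. The groups did not overlap, but the gene was not called over all libraries (log2 fold change 3.86, adjusted p = 0.193). It was called without Smyd2 SMC-/- replicate 1 and in replicates 2 and 3 alone, fits that called 686 and 3650 of the 12565 tested genes. In the latter the log2 fold change was 5.59 (adjusted p = 8.67e-07, and 8.67e-07 to 0.479 over the alternatives).

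Cell type markers were read beside these values. Of 8 smooth muscle markers, 5 were tested and 1 was called, Acta2, the most abundant of them in every library, beside 2.44% of all tested genes. Acta2 was at 761.48, 682.39 and 682.96 FPKM across Smyd2 fl/fl libraries 1 to 3, against 200.95, 267.89 and 262.10 FPKM across Smyd2 SMC-/- libraries 1 to 3, and its log2 fold change was -1.55 (adjusted p = 0.00803, and 0.000241 to 0.0615 over the alternatives). The call was lost without replicate 2 or 3 of Smyd2 fl/fl (adjusted p = 0.0541 and 0.0615) or replicate 3 of Smyd2 SMC-/- (adjusted p = 0.0533), at log2 fold changes between -1.61 and -1.57. Acta2, like Ankrd1, lies on chromosome 19, and with chromosome medians removed its log2 fold change was -1.12 (adjusted p = 0.0235). Tagln was at 80.49, 79.14 and 70.26 FPKM across Smyd2 fl/fl libraries 1 to 3, against 12.46, 87.30 and 57.12 FPKM across Smyd2 SMC-/- libraries 1 to 3, low in the same replicate 1 library in which Ctgf was low. Its log2 fold change was -0.92 over all libraries (adjusted p = 0.496) and -0.077 in replicates 2 and 3 alone (adjusted p = 0.802, and 0.268 to 0.802 over the alternatives). Lmod1 was at 3.28, 2.71 and 2.83 FPKM across Smyd2 fl/fl libraries 1 to 3, against 1.22, 5.44 and 6.02 FPKM across Smyd2 SMC-/- libraries 1 to 3. Opposite in sign to Acta2, its log2 fold change was 0.24 over all libraries (adjusted p = 0.817). In replicates 2 and 3 alone it was 0.83 and Lmod1 was called, beside 3650 of the 12565 tested genes (adjusted p = 0.00335, and 0.00335 to 0.996 over the alternatives). Cnn1 was at 4.86 to 21.03 FPKM in Smyd2 fl/fl and 2.70 to 5.07 FPKM in Smyd2 SMC-/-, and Smtn at 51.99 to 55.03 FPKM and 45.92 to 63.06 FPKM. Both overlapped and neither was called. Myh11, Des and Myocd, which mark mature contractile cells, were under 0.5 FPKM in every library.

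The summed FPKM of the 8 smooth muscle markers, most of it from Acta2, was 922, 821 and 814 across Smyd2 fl/fl libraries 1 to 3, against 263, 429 and 376 across Smyd2 SMC-/- libraries 1 to 3. The 8 markers of adventitial fibroblasts summed to 307, 947 and 809 FPKM across Smyd2 fl/fl libraries 1 to 3, against 155, 716 and 707 FPKM across Smyd2 SMC-/- libraries 1 to 3, low in both replicate 1 libraries, although Dpt was highest there within each group (143.88 and 3.31 FPKM). Dcn had the highest mean over the 6 libraries, although Ly6a was above it in every Smyd2 fl/fl library. Within each replicate number Dcn was higher in Smyd2 SMC-/-, but it was not called (log2 fold change 0.53, adjusted p = 0.890). Over the alternatives the log2 fold change of Dcn ran from -0.89 to 1.79 and its adjusted p from 0.0418 to 0.993. Of these 8 markers Dpt and Serpinf1 were called, both lower, beside 2.44% of all tested genes. Their log2 fold changes were -5.28 and -3.0 (adjusted p = 0.00417 and 0.00246). Both stayed called in each of the alternatives, at adjusted p up to 0.0407 and 0.0267. With the replicate block Ly6a was lower as well (adjusted p = 0.0404) and Col14a1 was higher (adjusted p = 0.0032), beside 10.4% of all tested genes. Over the alternatives their adjusted p ran from 0.000336 to 0.823 and from 1.76e-05 to 0.246. These 4 were called with the same signs in replicates 2 and 3 alone, beside 3650 of the 12565 tested genes, and so were Pdgfra at -2.21 (adjusted p = 0.00012, and 0.00012 to 0.232 over the alternatives), Pi16 at -1.62 (adjusted p = 0.0127, and 0.0127 to 0.574 over the alternatives) and Lum at 2.57 (adjusted p = 7.4e-05, and 7.4e-05 to 0.673 over the alternatives). Pdgfra was lower in every Smyd2 SMC-/- library. Per the study's methods, staining for the protein of Acta2 put smooth muscle cells at more than 95% in each batch. Cells grown from the aorta can carry fibroblasts, and any part of theirs in the values of the members, Amotl2 included, was not tested.

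The 6 epithelial and mesothelial markers, led by Upk3b, summed to 10.9, 76.5 and 75.6 FPKM across Smyd2 fl/fl libraries 1 to 3, against 16.2, 138.1 and 78.8 FPKM across Smyd2 SMC-/- libraries 1 to 3, again low in both replicate 1 libraries. Upk3b had a log2 fold change of 1.01 and was called with the replicate block (adjusted p = 0.0491), not without it (adjusted p = 0.579, and 0.0305 to 0.881 over the alternatives). Msln and Cdh1 had log2 fold changes of the opposite sign, -0.91 and -0.68, and were not called (adjusted p = 0.748 and 0.721). In replicates 2 and 3 alone, where 3650 of the 12565 tested genes were called, so were all 3, Upk3b at 1.21 (adjusted p = 0.0305), Msln at -1.46 (adjusted p = 0.000965, and 0.000965 to 0.968 over the alternatives) and Cdh1 at -0.96 (adjusted p = 0.00806, and 0.00806 to 0.963 over the alternatives). Krt18, which did not pass the filter, was at 0.28, 1.10 and 1.0 FPKM across Smyd2 fl/fl libraries 1 to 3, against 0.04, 0.23 and 0.24 FPKM across Smyd2 SMC-/- libraries 1 to 3, without overlap. Epcam and Krt8 were at most at 0.15 FPKM. The 8 endothelial markers summed to at most 5.64 FPKM in any library, with Cdh5 and Tie1 at 0.01 FPKM or less. The 7 macrophage markers, led by Cd14, summed to 18.3 to 42.6 FPKM, and Ptprc, Adgre1 and Itgam were at 0.02 FPKM or less. Pecam1, an endothelial marker that did not pass the filter, was lower in every Smyd2 SMC-/- library, at 0 to 0.18 FPKM against 0.56 to 0.92 FPKM. In these 2 lists Kdr and Csf1r, higher in every Smyd2 SMC-/- library, and Lyz2 were called in replicates 2 and 3 alone, at 1.53, 0.60 and -0.95, and not over all libraries (adjusted p = 0.186, 0.102 and 0.398).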

How the data were processed

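RNA of 6 libraries was analysed, 3 Smyd2 fl/fl and 3 Smyd2 SMC-/-, grouped by their labels. The authors sequenced poly-A RNA on the BGISEQ-500 platform, filtered with SOAPnuke, aligned with HISAT and Bowtie2, and quantified genes with RSEM. They deposited FPKM values with 2 decimals, which are not counts. Tool versions and genome build are not given in the sources used here.

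The 12565 genes whose mean reached 0.5 FPKM were tested on log2(FPKM + 1), that is with a pseudocount of 1, in limma 3.58.1 under R 4.3.3 (trend and robust eBayes), and p was adjusted over all of them by Benjamini-Hochberg. This scale makes changes of low genes look smaller. The fit was tested on simulated data, with less random spread than in these libraries and with large changes. It was thus not tested at the spread and the effect sizes seen here. Exact permutation tests were two-sided. The study names no pairing, so the main comparison has no block. Across genes, libraries of the same replicate number deviated from their group means together, with r = 0.61, 0.46 and 0.53 for numbers 1, 2 and 3, so a replicate block (replicate number in the model) was fitted too. Replicates 2 and 3 of different groups also deviated together (r = 0.46 and 0.44).

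Depth was searched over fragment numbers and 6 allowances for fragment length in genes with 1 transcript of up to 1500 bases. The allowance with the largest mean share of low values within 0.15 of a whole fragment was used, at which the share was 71.5% to 73.7% by library. As they were chosen by this share, it does not test the estimates, which are approximate. Lengths and chromosomes came from GENCODE M21 (GRCm38) and promoters from RefSeq, with motifs searched on both strands. Python 3.11.15 with numpy 2.4.6, pandas 2.3.3 and matplotlib 3.10.9 was used.

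The members and lists were chosen with earlier results of these data known. Named genes are all members, pathway genes called with or without the replicate block, all smooth muscle markers, the most abundant and the called genes of other marker lists, the 2 nearest profiles of each target gene, and Smyd2. Amotl1, Tead4, Igfbp3 and uncalled markers of other cell types were named outside this rule after their values were seen. Alternatives were a pseudocount of 0.1, no filter, the replicate block, leaving out each library, replicates 2 and 3 alone, a block for replicate 1, TPM, quantile normalization, the cutoffs of the study's methods and, added later, removal of chromosome medians.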

Additional observations from a re-analysis of the deposited data

How the results depend on the processing

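The members' log2 fold changes kept direction and call in 113 of 140 combinations of member and alternative. This count includes members that were uncalled and stayed so. Amotl2, the called member, lost its call in 4 of the 14 alternative fits. The cutoffs of the study's methods are not among the 140. The number of members called, 1, was 3 with a block for replicate 1 and 5 in replicates 2 and 3 alone. It was 0 to 2 when a library was left out. At the cutoffs of the study's methods (over 2-fold, adjusted p under 0.01) it was 0. A figure caption of the study gives a lower limit on adjusted p. In the main fit, limma gave 3 members an unadjusted p under 0.05, beside 2556 of the 12565 tested genes. All tested genes called, 306, became 1312 with the replicate block, 2550 with the block for replicate 1, 3650 in replicates 2 and 3 alone, 53 at the stricter cutoffs and 34 to 686 with a library left out. Pathway genes called, 4, became 7, 11, 18, 0 and 0 to 6 in that order. In the main fit 17 pathway genes had an unadjusted p under 0.05 in limma, beside 2556 of the 12565 tested genes. With the replicate block, no member's call changed.

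The log2 fold change of Smyd2, -1.48, was called with either block at the same value, and in replicates 2 and 3 alone at -1.35. Rescaling to TPM moved the median of all genes from -0.02 to 0.10, and 71.4% of the called genes were then higher, against 50.3%, or 63.2% with chromosome medians removed. Ctgf turned to 1.20 in replicates 2 and 3 alone, 0.0035 with TPM and 0.25 with chromosome medians removed, an alternative added after the data were seen. Yap1 turned to 0.017 in replicates 2 and 3 alone, 0.083 with TPM and 0.0064 with quantile normalization. Tead2 turned to -0.25 in replicates 2 and 3 alone, where Tead3 was 0.12. Tead3 was also 0.11 with TPM, 0.026 with quantile normalization and 0.14 with chromosome medians removed.

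With a library left out, the log2 fold change ran from -0.86 to 1.26 for Ctgf, -0.086 to 0.027 for Yap1, -0.058 to 0.21 for Tead1, -0.019 to 0.60 for Tead2 and -0.12 to 0.19 for Tead3. The difference in share of the TEAD sum ran from -2.54 to 4.82 percentage points for Tead1, -1.28 to 6.07 for Tead2 and -4.43 to 0.35 for Tead3. In replicates 2 and 3 alone it was 5.68 for Tead1, against 0.71 in all libraries, -5.11 for Tead2, 0.20 for Tead3 and -0.78 for Tead4, against -1.46. Where fewer libraries entered, fewer samples gave the spread, and otherwise the cause was not tested. FPKM carries no counts, so counting error could not enter the test.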
